A study of Mus musculus with 8 samples.

Results

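The comparison set 2 microglial arrays from mice with experimental autoimmune encephalomyelitis (EAE) labelled p50 against 2 arrays of naive microglia, 4 of the 8 arrays in the series, over genes on autosomes. The p50 groups were EAE p50 microglia of mice with an oligodendroglia-specific conditional knockout, labelled icKO, and of mice labelled F/F. The naive groups were microglia of icKO mice and of mice labelled FL. F/F and FL were both taken as the control genotype, carrying floxed alleles without the knockout. The other 4 arrays, icKO and control EAE with and without iguratimod (IGU, an anti-inflammatory drug), entered the model for its estimate of spread. Every group was 1 array of C57Black/6J microglia; the labels give no age, no number of animals, no Cre driver and no meaning for p50. The knockout was not checked on the arrays. Genes were members where icKO p50 minus icKO naive and F/F p50 minus FL naive had the same sign, on the scale log2(intensity + 16). This held for 11524 of 16957 tested autosomal genes, 5932 higher and 5592 lower on p50. In the whole series 18244 genes of 30743 named ones were tested.

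The p50 arrays stood apart from the rest in sex-linked genes, which are left out of the results. Xist, transcribed from a silenced X chromosome, had levels of 16.64 and 15.90 on the icKO and control p50 arrays, against 8.05 and 8.30 on the naive arrays. The Y-linked gene Eif2s3y lay at 7.40 and 7.29 on p50 and at 10.17 and 9.44 on naive arrays. Sex, batch and p50 cannot be told apart in any difference below. Defining microglial genes were bright in both states: the fractalkine receptor gene Cx3cr1 lay at 18.23 and 18.43 on p50 and at 18.27 and 18.26 on naive arrays. None of the 12 autosomal neuronal markers was bright enough to be tested, and 1 of 11 mature oligodendrocyte markers was. In such bulk RNA, fewer cells of a type and less RNA per cell cannot be told apart.

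Microglia are the resident macrophages of the brain and spinal cord. In EAE, an autoimmune attack on myelin directed by T cells, they take up debris, raise antigen presentation by MHC class I and II, and answer interferons and other cytokines. Macrophages that clear myelin handle its lipids through lipoprotein receptors, lysosomal enzymes and cholesterol export, and a set of genes that includes Apoe, Clec7a, Cst7 and Itgax is known from microglia around lesions and plaques as disease-associated.

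The levels moved together in the pairs of both genotypes. Across the tested autosomal genes the pair differences had a Pearson correlation of 0.58 and a Spearman correlation of 0.49, as a description over genes, which are not independent. The median difference was 0.01 in both pairs. Limma, fitted over all 8 arrays with terms for state and genotype, called 27 genes higher (0.159% of those tested) and 15 lower (0.0885%) at an adjusted p of 0.05, and 3289 had an unadjusted p under 0.05. At least 2-fold differences in both pairs were found for 224 higher genes (1.32%) and 72 lower genes (0.425%). Of these, 69 higher and 3 lower were genes of the kinds named below, the others being small RNAs, predicted genes, pseudogenes, receptor families and antigen receptor segments. Of the 42 called genes, 17 higher and 0 lower were of the named kinds.

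The adjustment spans sex-linked genes, of which 40 on X and 60 on Y were called; adjusted and fitted over autosomal genes alone, no autosomal gene passed (lowest adjusted p = 0.101, with 3340 genes at an unadjusted p under 0.05). Without the icKO p50 array limma called 0 higher and 0 lower genes, without the F/F p50 array 1 and 0, without the icKO naive array 1 and 9, and without the FL naive array 1 and 1. Leaving out either EAE array gave 12 and 20, and leaving out either IGU array 102 and 18. No label says that arrays of a state are separate cultures or animals, so p-values cover only the scatter among these 8 arrays, and their number limits the precision. That scatter is how far state and genotype failed to add up. A genotype difference that varied by state is thus counted as noise.

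**Figure D1:**
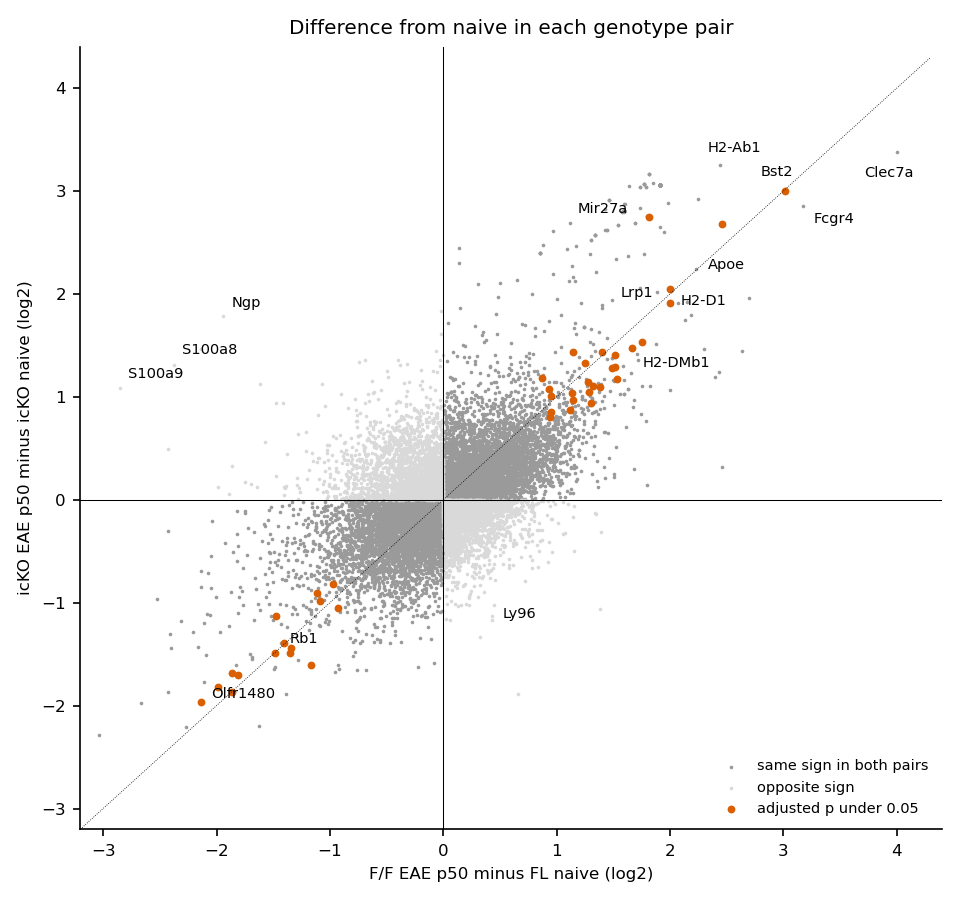
Difference from naive for each tested autosomal gene, on the log2 scale: F/F EAE p50 minus FL naive on the horizontal axis and icKO EAE p50 minus icKO naive on the vertical axis. Dark points share a sign in both pairs, pale points do not, and orange points are the 42 genes with an adjusted p under 0.05. Bst2 sits on the diagonal near 3 on both axes, while S100a9, S100a8 and Ngp sit at the upper left, lower in the control pair and higher in the icKO pair.

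Among called genes of named kinds, Bst2 had the largest difference. Bst2 (chr8:71534255-71537472, GRCm38.p6) encodes tetherin, a membrane protein induced by interferon that holds budding virus particles on the cell surface. Its level was 11.55 and 11.86 on the icKO and control p50 arrays, against 8.55 and 8.84 on the naive arrays. Both p50 arrays lay above both naive arrays by nearly the same amount, and Bst2 rose by 3.01 ± 0.36 (SE), a fold of 8.05 (limma, adjusted p = 0.0339). It lay at 9.67 and 10.23 in EAE and at 10.35 and 9.40 in EAE with IGU, below both p50 arrays. Its promoter is shown because it holds the DNA element through which interferon-activated factors act. The RefSeq window of GRCm38.p6, chr8:71537423-71537722 on the minus strand, runs from 250 bases before to 50 after the gene start, and capitals mark matches to the core of the interferon-stimulated response element (GAAA, any 2 bases, GAAA), searched on both strands. The matches begin at -130 and -124, counted from the gene start, and overlap by a shared GAAA.
Bst2: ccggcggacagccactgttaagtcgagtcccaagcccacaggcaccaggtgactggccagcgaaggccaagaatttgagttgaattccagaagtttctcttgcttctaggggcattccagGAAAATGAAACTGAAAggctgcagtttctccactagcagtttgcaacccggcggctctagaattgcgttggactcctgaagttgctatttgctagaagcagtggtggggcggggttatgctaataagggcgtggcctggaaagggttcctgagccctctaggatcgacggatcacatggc
This element core was found in 16 of 25 promoters of the interferon response list (64%) and in 400 of 9707 promoters of tested autosomal genes (4.12%). Among genes of named kinds at least 2-fold higher in both pairs it was found in 3 of 52 promoters (5.77%), near the share of tested autosomal genes.

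Other interferon response genes differed by less. Of 34 tested genes, 20 were higher and 6 lower in both pairs, with a median difference of 0.22, and 1, Bst2, was called. Ifit1, an interferon-induced gene that binds foreign RNA, had levels of 8.10 and 8.24 on p50 and 8.51 and 8.80 on naive arrays, a difference of -0.48 ± 0.17 (adjusted p = 0.197). Ifit3, its partner, had a difference of -0.40 ± 0.17 (adjusted p = 0.261). Stat2, which carries the interferon signal to the nucleus, lay at 9.46 and 9.58 on p50 and 8.71 and 8.75 on naive arrays (adjusted p = 0.166). The genotypes gave list medians of 0.43 for icKO and 0.08 for control.

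MHC class I genes, whose products show peptides to CD8 T cells, were higher in both pairs for all 13 tested members of the list, with a median difference of 0.53, and 1 was called. H2-D1 (chr17:35263094-35267497), a class I heavy chain gene, lay at 13.47 and 13.37 on p50, against 11.42 and 11.37 on naive arrays. It rose by 2.03 ± 0.24, a fold of 4.07 (limma, adjusted p = 0.0339), with the genotypes close together in both states. H2-K1, the other classical heavy chain gene, lay at 12.77 and 12.56 on p50 and at 10.74 and 10.67 on naive arrays (1.95 ± 0.31, adjusted p = 0.0651). Class I genes are close paralogs that can share probe sequence, so their values are uncertain as single genes. B2m, the shared light chain, lay at 18.90 and 18.81 on p50 and at 18.00 and 18.03 on naive arrays (0.85 ± 0.13, adjusted p = 0.0629). The peptide transporter gene Tap1 was higher by 0.81 in icKO and by 0.57 in control.

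MHC class II genes, which present peptides to CD4 T cells, had a median difference of 0.57, with 8 of 13 higher and 2 lower in both pairs and 1 called. H2-DMb1 (chr17:34153191-34160229), a chain of the H2-M exchanger that loads peptides onto class II, lay at 11.54 and 11.51 on p50, against 10.07 and 9.84 on naive arrays. It rose by 1.57 ± 0.16, a fold of 2.97 (limma, adjusted p = 0.0181). H2-Ab1, a class II beta chain gene, lay at 13.13 and 12.65 on p50 and at 9.88 and 10.21 on naive arrays. Its difference was larger, with a larger SE (2.85 ± 0.56, limma, adjusted p = 0.0802). H2-Eb1 lay at 10.68 and 10.51 on p50 and at 8.62 and 8.78 on naive arrays (1.90 ± 0.62, adjusted p = 0.174). Ciita, the master activator of class II genes, differed by 0.08 in icKO and -0.03 in control. It was dim, at 8.06 and 7.98 on p50 and 7.98 and 8.01 on naive arrays, so no steady level of Ciita is read from this. The levels of H2-Ab1 in EAE were 15.76 and 14.53, above p50; the EAE and p50 differences share the naive arrays.

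The promoters of the called MHC genes H2-D1 and H2-DMb1 are given for comparison with that of Bst2, in RefSeq windows of the same length, chr17:35262844-35263143 and chr17:34152941-34153240, both on the plus strand. Capitals mark matches on either strand to the interferon element core, to TGANTCA, the AP-1 core, and to CCAAT, the box that NF-Y binds.
H2-D1: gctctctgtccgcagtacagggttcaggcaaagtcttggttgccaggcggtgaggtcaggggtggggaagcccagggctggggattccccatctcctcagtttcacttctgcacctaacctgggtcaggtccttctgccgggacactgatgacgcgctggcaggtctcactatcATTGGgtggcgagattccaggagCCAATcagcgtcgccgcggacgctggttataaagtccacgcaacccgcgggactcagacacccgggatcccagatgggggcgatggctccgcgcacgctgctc
H2-DMb1: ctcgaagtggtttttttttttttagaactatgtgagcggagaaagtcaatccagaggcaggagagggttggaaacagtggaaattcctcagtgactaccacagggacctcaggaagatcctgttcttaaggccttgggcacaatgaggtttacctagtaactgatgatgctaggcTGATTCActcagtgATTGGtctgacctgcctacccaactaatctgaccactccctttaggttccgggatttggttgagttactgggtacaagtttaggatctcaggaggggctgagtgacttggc
H2-D1 held CCAAT at -76, on the opposite strand, and at -53. H2-DMb1 held TGANTCA at -75 and CCAAT at -61, on the opposite strand. Neither window held an exact match to the interferon element core (GAAA, any 2 bases, GAAA). Looser forms of that element were not searched, so its absence from either promoter is not read from this. CCAAT was found in 8 of 11 MHC class I list promoters (72.7%) and in 9 of 11 class II list promoters (81.8%), and in 42.0% of promoters of tested autosomal genes. TGANTCA was found in 0 of 11 class I list promoters, in 3 of 11 class II list promoters (27.3%) and in 7.73% of promoters of tested autosomal genes. Among genes of named kinds at least 2-fold higher in both pairs, CCAAT was found in 24 of 52 promoters (46.15%) and TGANTCA in 5 of 52 (9.6%).

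**Figure D2:**
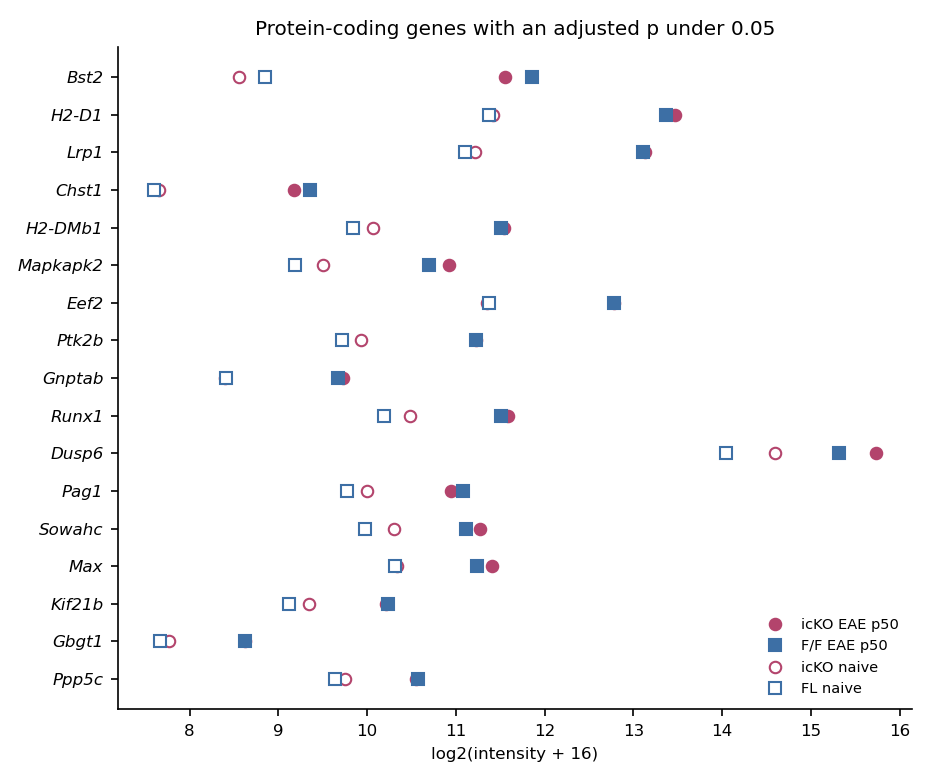
Levels, as log2(intensity + 16), of the 17 protein-coding genes with an adjusted p under 0.05, with predicted genes and chemosensory receptors left out. Filled marks are the p50 arrays and open marks the naive arrays, with circles for icKO and squares for control. In each gene both filled marks lie to the right of both open marks.

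The lipid handling genes were led by Lrp1 (chr10:127538157-127621148), a large endocytic receptor for apolipoprotein E and many other ligands. Lrp1 lay at 13.13 and 13.10 on p50, against 11.22 and 11.10 on naive arrays. It rose by 1.96 ± 0.17, a fold of 3.88 (limma, adjusted p = 0.0103), and both p50 arrays lay above each of the other 6 arrays, which reached 11.71 in control EAE. Of the 16 tested genes of lipoprotein uptake, cholesterol efflux and lipid droplets, 13 were higher and 1 lower in both pairs, with a median of 0.68 and 1 called. Apoe, which encodes apolipoprotein E, lay at 12.22 and 12.02 on p50 and at 9.98 and 9.80 on naive arrays (2.23 ± 0.55, limma, adjusted p = 0.114). Lipa, the lysosomal enzyme that frees cholesterol from its esters, differed by 1.13 ± 0.26 (adjusted p = 0.0995). The exporters Abca1 and Abcg1 differed by 0.94 ± 0.27 and 0.60 ± 0.13. Nr1h3, the sterol sensor LXR alpha that controls such exporters, was lower by 0.23 in icKO and 0.26 in control. It was dim, at 7.96 and 8.01 on p50 and 8.19 and 8.27 on naive arrays, so no fall of Nr1h3 is read from this. The 9 tested cholesterol synthesis genes had a median of 0.07 and 0 called.

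Disease-associated genes were higher in both pairs for 19 of 22, with a median difference of 0.67 and 0 called. At an unadjusted p under 0.05 (limma), 12 were higher and 1 lower, against 3289 of all 16957 tested autosomal genes in either direction. Clec7a, the receptor dectin-1, had the largest difference of the named kinds, with levels of 13.03 and 13.12 on p50, against 9.65 and 9.12 on naive arrays. The gap between its icKO and control arrays changed with state, with levels of 15.14 and 13.27 in EAE and 14.24 and 9.38 in EAE with IGU. Such uneven gaps enter the SE of this model, and the difference of 3.69 ± 1.12 did not pass (limma, adjusted p = 0.155). Cst7, a cathepsin inhibitor, lay at 10.68 and 11.03 on p50 and at 8.88 and 8.85 on naive arrays (1.99 ± 0.66, adjusted p = 0.178). Itgax, which encodes CD11c, lay at 10.65 and 10.47 on p50 and at 9.02 and 9.10 on naive arrays (1.5 ± 0.44, adjusted p = 0.15). Trem2, the lipid receptor that this state depends on, lay at 11.62 and 11.96 on p50 and at 11.81 and 11.30 on naive arrays, the icKO p50 array within the naive range and the control one above it (adjusted p = 0.642).

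Of 25 tested cathepsin and lysosome genes, 20 were higher and 0 lower in both pairs, with 0 called. At an unadjusted p under 0.05 (limma), 16 were higher, against 3289 of all 16957 tested autosomal genes in either direction. Their median was 0.43 in icKO and 0.91 in control. Ctsz, a cathepsin, lay at 15.41 and 15.66 on p50, against 14.16 and 13.23 on naive arrays (1.84 ± 0.34, adjusted p = 0.0756). Cd63, a membrane protein of late endosomes, lay at 14.24 and 14.39 on p50 and at 13.18 and 12.39 on naive arrays (1.53 ± 0.34, adjusted p = 0.0981). In both, the p50 arrays lay close together while the naive icKO array lay above the naive control array. Gnptab (chr10:88379134-88447324), whose enzyme tags lysosomal hydrolases for delivery, lay at 9.73 and 9.67 on p50 and at 8.40 and 8.41 on naive arrays, and it rose by 1.29 ± 0.18 (limma, adjusted p = 0.0496), just inside the threshold.

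Fcgr4, an activating receptor for IgG, stood just outside it. Its level was 10.42 and 11.12 on p50, against 7.56 and 7.95 on naive arrays, a difference of 3.01 ± 0.42, or 8.08-fold (adjusted p = 0.0504). Of 22 tested Fc receptor and phagocytosis genes, 20 were higher and 1 lower in both pairs (median 0.60, 0 called). Dock2, which activates Rac in blood cells, lay at 12.44 and 12.41 on p50 and at 11.27 and 11.15 on naive arrays (adjusted p = 0.0651). Among 15 complement genes 10 were higher and 2 lower in both pairs, and 0 were called. The complement receptor 3 chains Itgam and Itgb2 differed by 1.11 ± 0.16 (adjusted p = 0.0540) and 1.19 ± 0.18 (adjusted p = 0.0594).

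Homeostatic microglial genes divided. Of 22 tested, 8 were higher, 3 lower and 11 of mixed sign, with 0 called. Tmem119, a surface marker of resident microglia, lay at 11.50 and 11.91 on p50, against 10.50 and 10.69 on naive arrays (1.11 ± 0.16, adjusted p = 0.0519). Mertk, a receptor for dying cells, lay at 15.04 and 15.22 on p50 and at 13.99 and 13.94 on naive arrays (1.17 ± 0.24, adjusted p = 0.0853). The ADP receptor gene P2ry12 lay at 13.77 and 14.17 on p50 and at 13.78 and 13.64 on naive arrays. Mef2c, a transcription factor that restrains microglial activation, was lower by 0.68 in icKO and 0.27 in control (adjusted p = 0.269). The list median was 0.25, and -0.06 after a further quantile normalization.

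All 14 tested genes of the TGF-beta pathway, which maintains microglial identity, were higher in both pairs (median 0.43, 0 called). Of them 9 had an unadjusted p under 0.05 (limma), against 3289 of all 16957 tested autosomal genes in either direction. The ligand gene Tgfb1 lay at 10.99 and 11.13 on p50, against 10.18 and 10.29 on naive arrays (0.83 ± 0.12, adjusted p = 0.0546). The receptor genes Tgfbr1 and Tgfbr2 differed by 0.98 ± 0.27 and 1.13 ± 0.36. Among 16 lineage transcription factors 11 were higher and 4 lower in both pairs, and Runx1 was called. Runx1 (chr16:92601466-92826074), a factor of blood cell development that is also active in microglia, lay at 11.58 and 11.51 on p50, against 10.48 and 10.19 on naive arrays. It rose by 1.21 ± 0.16 (limma, adjusted p = 0.0424), and both p50 arrays lay above each of the other 6.

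The other called genes of named kinds belonged to none of the lists. Mapkapk2 (chr1:131053700-131097871), the kinase below p38 that stabilises cytokine mRNAs, lay at 10.92 and 10.70 on p50, against 9.51 and 9.19 on naive arrays. It rose by 1.46 ± 0.16 (limma, adjusted p = 0.0213). Ptk2b (chr14:66153257-66281100), the calcium-sensitive kinase PYK2, lay at 11.23 and 11.23 on p50 and at 9.94 and 9.72 on naive arrays and rose by 1.40 ± 0.14 (limma, adjusted p = 0.0173). Dusp6 (chr10:99263231-99267489), a phosphatase that switches ERK off, lay at 15.73 and 15.32 on p50 and at 14.59 and 14.04 on naive arrays and rose by 1.21 ± 0.13 (limma, adjusted p = 0.0213). Pag1, an adaptor that recruits a kinase inhibiting Src enzymes, rose by 1.12 ± 0.16, and the phosphatase gene Ppp5c by 0.88 ± 0.12 (limma, adjusted p = 0.0496 and 0.0432). The remaining called genes of named kinds rose by 0.90 to 1.64: the keratan sulfotransferase gene Chst1 (1.64 ± 0.22), the translation elongation factor gene Eef2 (1.42 ± 0.19), Sowahc (1.06 ± 0.14), the Myc partner gene Max (1.0 ± 0.12), the kinesin gene Kif21b (0.99 ± 0.14) and Gbgt1 (0.90 ± 0.12).

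Of these 17, 10 had both p50 arrays above each of the other 6 arrays, against 12.2% of all tested autosomal genes. They were Bst2, Lrp1, Runx1, Ptk2b, Dusp6, Sowahc, Gbgt1, Kif21b, Pag1 and Ppp5c. The other 7, H2-D1 and H2-DMb1 among them, had at least 1 EAE array with a level as high as a p50 array. The calls used the p50 levels, so nothing is read from this count. Below each of the other 6 arrays lay 11.2% of the tested autosomal genes.

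**Figure D3:**
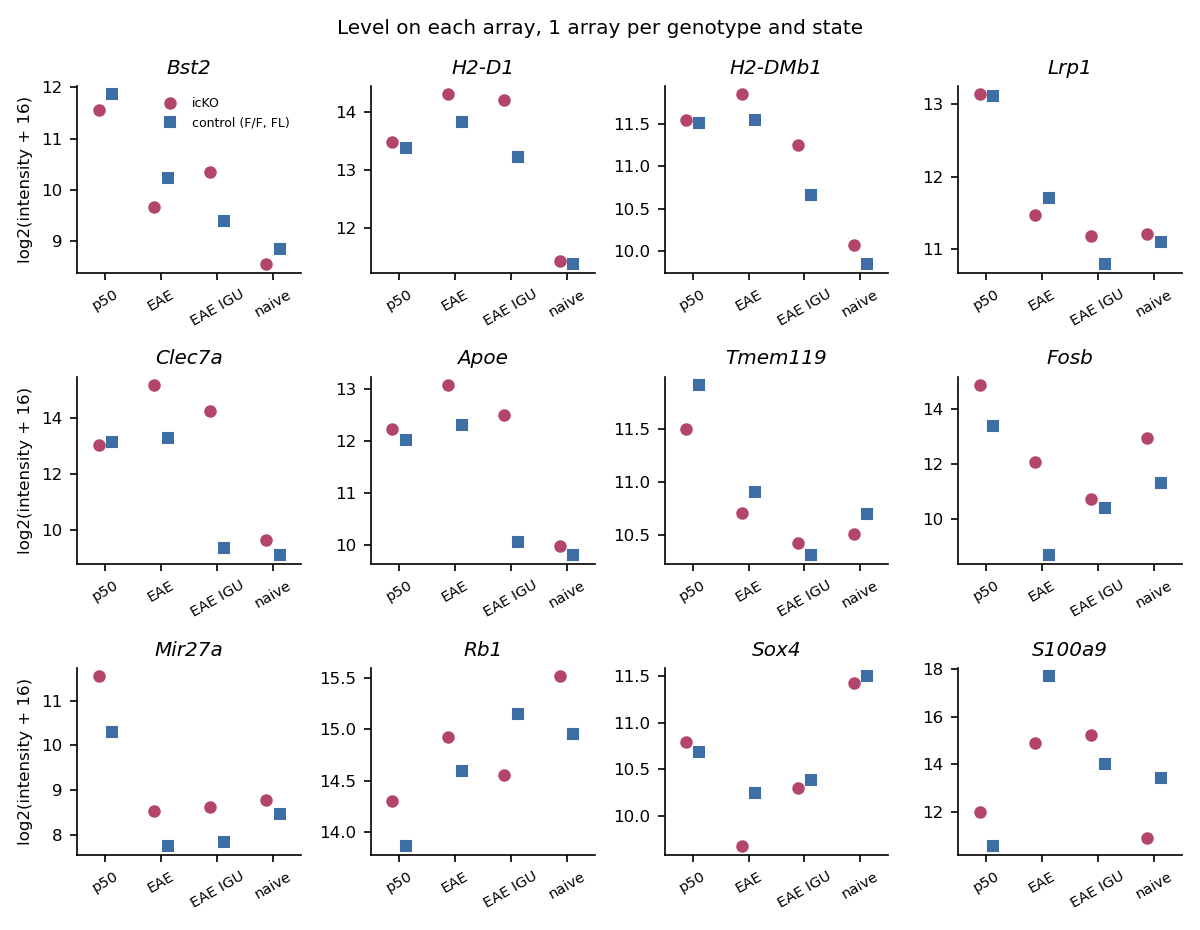
Levels of 12 genes, as log2(intensity + 16), on each array by state: p50, EAE, EAE with IGU and naive, with circles for icKO and squares for control and 1 array a point. The axes do not start at 0 and differ between panels. Lrp1 and Mir27a are high on p50 arrays alone, H2-D1 is also high in EAE, and S100a9 differs between genotypes in opposite directions on p50 and naive arrays.

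AP-1 and immediate early genes, which respond to stimulation within minutes and also to cell isolation, were higher in both pairs for 16 of 19 and lower for 0 (median 0.55, 0 called). Fosb, an AP-1 subunit gene, lay at 14.86 and 13.38 on p50, against 12.95 and 11.31 on naive arrays (1.99 ± 0.65, adjusted p = 0.176). In both states the icKO array lay above the control array, so the icKO naive array nearly reached the control p50 array. Atf3, a stress-induced factor, lay at 12.77 and 10.47 on p50 and at 10.64 and 9.81 on naive arrays, higher by 2.14 in icKO and 0.65 in control (adjusted p = 0.162). Klf6 differed by 1.22 ± 0.32 (adjusted p = 0.125). The part of handling in these values was not tested.

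Among cytokines and inflammasome genes 16 of 19 were higher and 2 lower in both pairs (median 0.48, 0 called). Il1a lay at 14.37 and 13.35 on p50 and at 13.29 and 12.04 on naive arrays (1.20 ± 0.35, adjusted p = 0.148). Il1b differed by 0.76 in icKO and 0.04 in control. All 12 NF-kB genes were higher on average, 11 of them in both pairs; Rela, which encodes the p65 subunit, differed by 0.67 ± 0.16 (adjusted p = 0.109). The chemokine gene Cxcl9 lay at 9.0 and 9.95 on p50 and at 7.26 and 7.82 on naive arrays (1.94 ± 0.86, adjusted p = 0.274), and in EAE it reached 13.68 and 12.37. Chemokine genes as a list had 10 of 17 higher and 2 lower in both pairs (median 0.37, 0 called). Glycolysis genes were higher in both pairs for 12 of 14 (median 0.33, 0 called), with Pfkfb3, which drives glycolytic flux, at 1.04 ± 0.19 (adjusted p = 0.0764). The proliferation marker Mki67 lay at 8.38 and 8.46 on p50 and at 7.49 and 8.02 on naive arrays, and at 11.09 and 11.53 in EAE. The 18 cell cycle genes had a median of 0.06, with 10 higher and 7 lower in both pairs and 0 called.

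The other lists had 0 calls. Costimulation and checkpoint genes had a median of 0.53 (12 of 15 higher in both pairs), cytosolic ribosomal protein genes 0.41 (9 of 12), heat shock genes 0.24 (9 of 17), iron and oxidative stress genes 0.23 (11 of 18), pattern recognition receptors 0.21 (12 of 25), purinergic genes 0.17 (6 of 11), respiratory chain genes 0.13 (11 of 19) and alternative activation genes 0.09 (5 of 14). Steroid-responsive genes had 3 of 5 higher in both pairs (median 0.21), among them Fkbp5 at 0.61 ± 0.14 (adjusted p = 0.104) and Per1 at 0.72 ± 0.16 (adjusted p = 0.0949). Across all tested autosomal genes 35.0% were higher and 33.0% lower in both pairs. For protein-coding genes, the main kind in the lists, the shares were 44.1% and 25.4%.

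**Figure D4:**
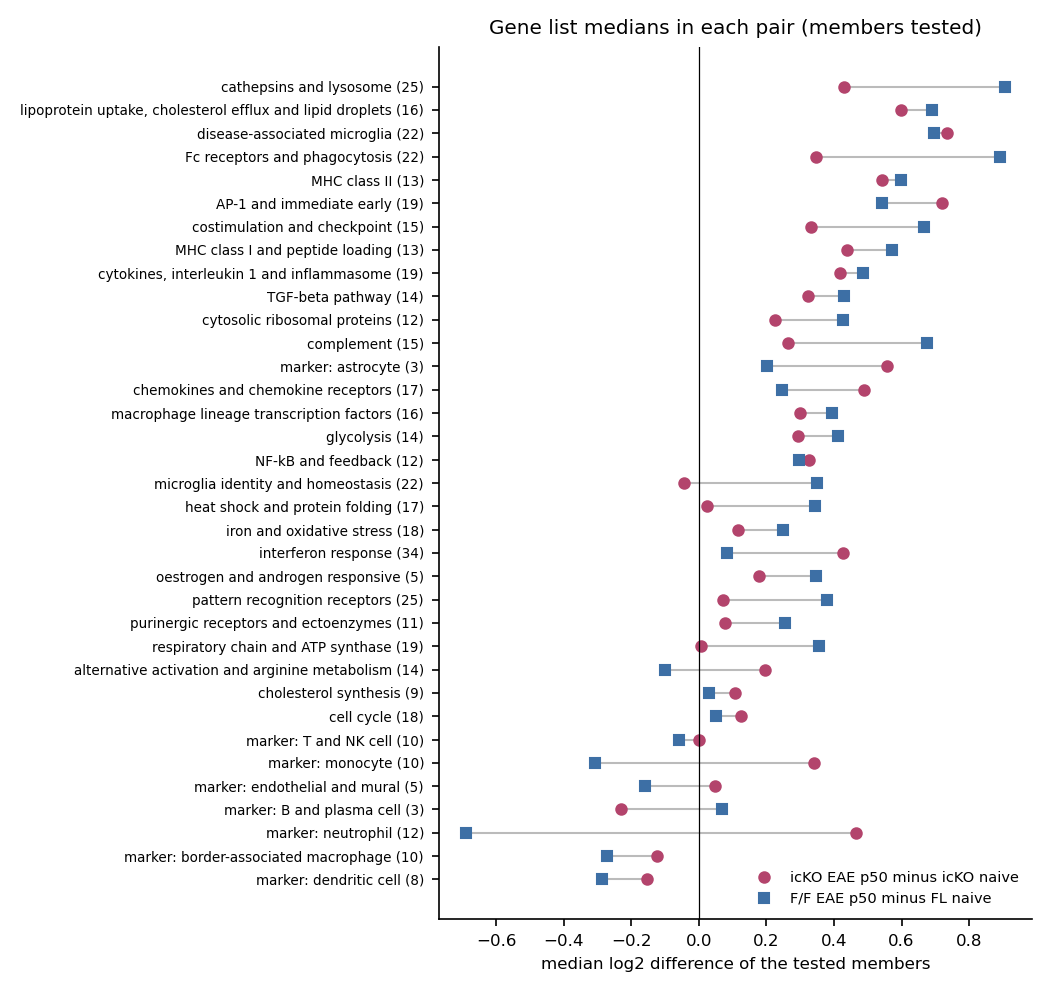
Median log2 difference between p50 and naive of each gene list with at least 3 tested members, for the icKO pair (circles) and the control pair (squares), with the number of tested members in parentheses. Lists run down the page by the median of the fitted difference, with lysosomal genes on top (0.43 in icKO and 0.91 in control), and the neutrophil and monocyte markers lie on opposite sides of 0 in the 2 pairs.

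Among lower genes of named kinds none was called. Besides those described next, the 15 lowest bright ones were Mptx2, Ctrcos, Alyref2, Eif4a3l1, H3c7, Mab21l1, Krtap17-1, H2bc3 and Defb46. Rb1, the retinoblastoma tumour suppressor gene, had the largest lower difference among the bright ones, with levels of 14.30 and 13.86 on p50, against 15.51 and 14.96 on naive arrays (-1.16 ± 0.29, adjusted p = 0.117). Both p50 arrays lay below each of the other 6. Bank1, an adaptor of B cell receptor signalling, lay at 10.38 and 10.42 on p50 and at 11.50 and 11.43 on naive arrays (-1.07 ± 0.27, adjusted p = 0.119), but in EAE it was lower still, at 9.86 and 10.21. Sox4, a factor of immature cells, lay at 10.80 and 10.68 on p50 and at 11.43 and 11.50 on naive arrays (-0.73 ± 0.19, adjusted p = 0.121). Ccr7, the receptor that guides dendritic cells to lymph nodes, lay at 9.56 and 9.69 on p50 and at 10.34 and 10.26 on naive arrays (-0.68 ± 0.12, adjusted p = 0.0706). The transcription factor gene Cebpd differed by -0.59 ± 0.13 (adjusted p = 0.0982) and the interferon gene Ifna4 by -0.82 ± 0.14 (adjusted p = 0.0696).

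The 15 genes called lower were of other kinds, chosen for mention after their values were seen: 9 chemosensory receptor genes, 2 pseudogenes, 2 small nucleolar RNA (snoRNA) genes, 1 small nuclear RNA gene and 1 microRNA gene. The olfactory receptor gene Olfr1480 lay at 9.50 and 9.76 on p50, against 11.19 and 11.63 on naive arrays (-1.77 ± 0.12, adjusted p = 0.00375), and at 9.43 and 9.78 in EAE, where it was as low as on p50. Direction went with the kind of gene. Protein-coding genes were higher in both pairs in 44.1% of cases and lower in 25.4%, whereas chemosensory receptor genes, which microglia are not known to use, were higher in 18.0% and lower in 49.9%. For microRNA genes the shares were 13.8% and 60.2%, and for long noncoding RNAs 14.2% and 53.9%. The median level of the chemosensory receptors was 8.51 on both p50 arrays, against 8.51 and 8.85 on the icKO and FL naive arrays. With a filter at the 70th percentile limma called 180 higher and 48 lower genes, and with arrays centred on their median 194 and 41, and the share of higher calls was larger under both.

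**Figure D5:**
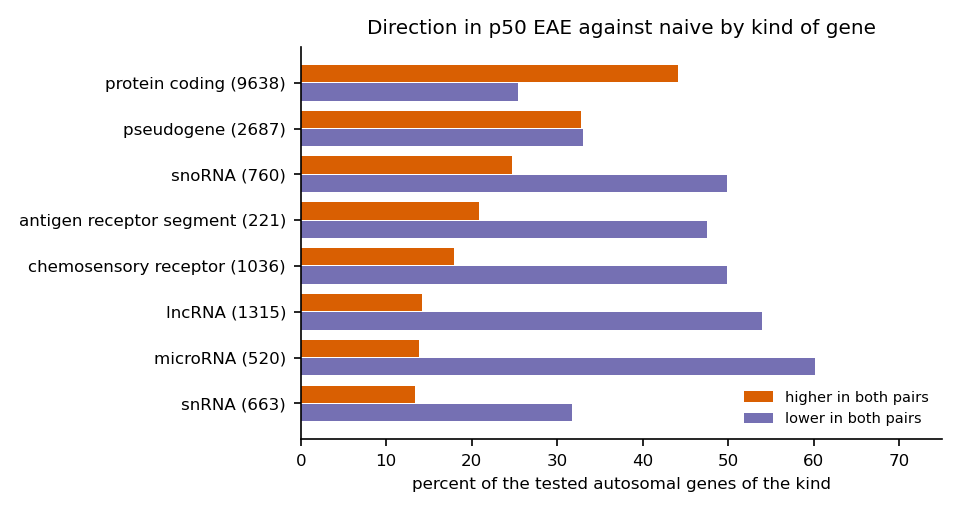
Percent of tested autosomal genes of each kind that were higher (orange) or lower (violet) on p50 than on naive arrays in both pairs, with the number tested in parentheses, for kinds with at least 200 tested genes. Protein-coding genes were more often higher, and microRNA, long noncoding RNA and chemosensory receptor genes more often lower.

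Of the 224 genes at least 2-fold higher in both pairs, 116 were snoRNA genes between positions 59347681 and 59617690 of chromosome 7, within the host gene Snhg14, the tandem repeats of the imprinted Prader-Willi region. Many share probes: the 116 gave 42 distinct sets of values and all 224 gave 148. Over these 42, the median level was 13.75 and 13.20 on the icKO and control p50 arrays, against 11.10 and 11.67 on naive arrays, and 12.77 in control EAE with IGU. These 42, of 77 distinct sets tested at the locus, were chosen by their p50 and naive levels. The gap between those arrays is thus set by the choice. None of the 169 tested snoRNA genes of the locus was called (lowest adjusted p = 0.0540), and Snhg14 itself was too dim to be tested, at 7.48 and 7.33 on p50 and 7.26 and 7.27 on naive arrays. Other bright noncoding RNAs differed in both directions. The microRNA genes Mir466f-3 and Mir101c, chosen after their values were seen, differed by -1.13 and -1.61, and neither was called. The small 7SL RNA gene Rn7s1, chosen after its values were seen, lay at 18.50 and 18.57 on p50. It lay at 17.42 and 16.94 on naive arrays (1.35 ± 0.21, limma, adjusted p = 0.0629). The long noncoding nuclear RNA Malat1 lay at 16.63 and 16.22 on p50 and at 15.38 and 15.07 on naive arrays (1.20 ± 0.23, limma, adjusted p = 0.0783).

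Against the trend of microRNA genes, a cluster on chromosome 8 was higher on p50, noted after the values were seen. Mir27a (chr8:84208672-84208758) lay at 11.53 and 10.30 on p50, against 8.78 and 8.48 on naive arrays, and rose by 2.28 ± 0.22 (limma, adjusted p = 0.0147). Mir24-2 lay at 11.04 and 9.85 on p50 and at 8.91 and 8.74 on naive arrays (1.62 ± 0.29, adjusted p = 0.0706). Mir23a lay at 11.14 and 9.98 on p50 and at 9.76 and 9.23 on naive arrays (1.07 ± 0.29, adjusted p = 0.136). On p50 the icKO array exceeded the control array in each of the 3. The hairpins lie within 404 bases, and the array measures their precursor region without telling the arms apart. Their 3′ arms from RefSeq are shown with the seed, bases 2 to 8, in capitals, because the seed sets which messages a microRNA binds.
mmu-miR-23a-3p: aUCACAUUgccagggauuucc
mmu-miR-27a-3p: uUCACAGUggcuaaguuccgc
mmu-miR-24-3p: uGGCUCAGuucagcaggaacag
The 3 seeds differ from each other. Mir142 and Mir669d-2 were also chosen after their values were seen. Mir142, a microRNA gene of blood cells, lay at 11.28 and 11.20 on p50 and at 10.57 and 9.59 on naive arrays (1.16 ± 0.22, adjusted p = 0.0783). Lower microRNA genes included Mir669d-2 on chromosome 2, at 12.02 and 12.21 on p50 and at 13.22 and 13.64 on naive arrays (-1.31 ± 0.27, adjusted p = 0.0875).

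Whether p50 differed from naive by genotype was tested as the icKO difference minus the control difference, in a model with 1 residual degree of freedom. No gene was called (limma, lowest adjusted p = 1.0, with 376 genes at an unadjusted p under 0.05). The highest values came from neutrophil genes. S100a9, an alarmin subunit, lay at 12 and 10.55 on the icKO and control p50 arrays and at 10.92 and 13.41 on the naive arrays, so that p50 was higher by 1.09 in icKO and lower by 2.86 in control (genotype difference 3.94 ± 1.92). Ngp, a neutrophil granule protein gene, gave 3.73 ± 2.01 and S100a8, the partner of S100a9, 3.69 ± 2.64. The lowest were Ly96, which encodes the Toll-like receptor 4 partner MD-2, at -1.47 ± 0.36, and the splicing factor gene Snrpd3 at -1.26 ± 0.35.

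Markers of blood leukocytes did not rise together on p50. The summed intensity of 15 neutrophil markers was 14912 and 7778 on the icKO and control p50 arrays, against 8210 and 27983 on naive arrays, and 106940 and 932071 in EAE. Of 12 tested, 0 were higher and 1 lower in both pairs. Monocyte markers summed to 5984 and 4956 on p50 and to 4153 and 5302 on naive arrays, and 3 of 10 tested were higher and 1 lower in both pairs. Markers of border-associated macrophages were lower in both pairs for 8 of 10 tested (median -0.19). Those of dendritic cells were lower for 5 of 8 (median -0.24), with 0 called in either list. Both lists were dim. The border-associated list had median levels of 7.995 and 8.13 on p50 and 8.04 and 8.24 on naive arrays. For the dendritic list they were 8.10 and 8.05 on p50 and 8.34 and 8.34 on naive arrays. Long noncoding RNAs, also dim, were lower in both pairs in 53.9% of cases, against 33.0% of all tested autosomal genes. No loss of either cell type is read from these counts. T and NK cell markers had a median of -0.02, with 1 of 10 higher and 4 lower. Astrocyte markers were higher in both pairs for all 3 tested of 11, led by the glutamate transporter gene Slc1a3, at 9.79 and 10.06 on p50 and 9.11 and 9.07 on naive arrays (adjusted p = 0.0696). B cell, endothelial, oligodendrocyte precursor and fibroblast lists had 3, 5, 1 and 2 tested members, and 0 were called. The part of other cells in the differences above was not tested.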

How the data were processed

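The authors deposited 1 table of 65956 rows by 8 arrays, linear intensities from Affymetrix Expression Console, per the submitters' processing notes; the summarization, normalization and version are not given in the sources used here. RNA from microglia was amplified and biotin-labelled with Affymetrix WT Pico chemistry, per the labels' protocols. Deposited intensities were converted to log2(intensity + 16), which understates changes of dim genes. Rows with 1 gene symbol (31216) were updated through RefSeq GRCm38.p6 records, and the brightest of several probe sets (364 genes) was kept. Genes above the 50th percentile of named rows on at least 1 array were tested. Limma 3.58.1 in R 4.3.3 (lmFit, eBayes, 3 residual degrees of freedom) fitted state and genotype over the 8 arrays, with Benjamini-Hochberg adjustment over 18244 tested genes, sex-linked ones included. The model was tested on simulated data. Genotypes were paired by the labels, and the targeted gene is not reported here.

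Named genes were the 15 highest and 15 lowest by the smaller pair difference whose brighter state exceeded the 60th percentile of tested genes, list members called or, failing that, up to 4 with the largest differences, up to 10 a direction with the lowest adjusted p, and 6 a direction for the genotype difference. Antigen receptor segments, chemosensory receptors, pseudogenes, small RNAs and predicted genes were only counted, except where their later choice is stated. Other called genes, further list members, Kcnj13 and Malat1 were named outside these rules. The members and lists were chosen with earlier results of these data known. Genes that share probe sequence are uncertain.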

Additional observations from a re-analysis of the deposited data

Results flagged for a closer look

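Xist, a gene outside the comparison because it lies on X, had a level of 16.64 on the icKO EAE p50 array and 15.90 on the F/F EAE p50 array, above the naive arrays at 8.05 and 8.30.

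The median difference of 7 gene lists had opposite signs in the pairs, and the difference between genotypes was not tested for these lists. For the icKO and the control pair it was 0.47 and -0.69 for neutrophil markers, 0.34 and -0.31 for monocyte markers, -0.0450 and 0.35 for homeostatic genes, 0.20 and -0.10 for alternative activation genes, 0.0469 and -0.16 for endothelial and mural markers, -0.23 and 0.0685 for B and plasma cell markers, and 0.00127 and -0.0583 for T and NK cell markers.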

How the results depend on the processing

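No paired analysis by replicate number was possible because the labels give no such numbers to use as a block. The pairing by genotype is already a term of the model. Counts of called genes, higher and lower, depended on the processing, and the cause was not tested. Without a filter they were 15 and 9 and with a filter at the 70th percentile 180 and 48, which changes the genes adjusted over. They were 14 and 18 after a further quantile normalization, 194 and 41 with arrays centred on their median, 23 and 25 with a trended and robust prior, 0 and 0 over autosomal genes alone, 150 and 44 without a genotype term, and 5 and 1 on naive and p50 arrays only. Leaving out 1 array gave from 0 to 102 higher and from 0 to 20 lower genes. With a pseudocount of 1 or 64, the mean of probe sets, autosomal centring, or genes of identical values counted once (added after the data were seen) they were 23 to 28 and 12 to 15. At least 2-fold differences in both pairs were 148 higher with identical genes counted once, and 689 higher and 380 lower at a 1.5-fold threshold. The genotype difference had 0 calls in all 4 settings tried. Of 3231 values of 155 named genes, 22 had the other sign, none of them of a called gene, while 83 lost and 71 gained a call. Lrp1 stayed between 1.71 and 2.02 and was called in 15 of 21 alternatives, as were Bst2, H2-DMb1, Mapkapk2 and Ptk2b; Pag1 was called in 5. List medians turned in sign in 17 of 735 values.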

Other observations

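Ttr, which encodes transthyretin, lay at 10.61 and 11.43 on the icKO and control p50 arrays, against 8.65 and 8.73 on naive arrays (2.33 ± 0.34, limma, adjusted p = 0.0540). Kcnj13, a potassium channel gene, lay at 9.09 and 8.94 on p50 and at 7.58 and 7.61 on naive arrays (1.42 ± 0.20, limma, adjusted p = 0.0532). Both are abundant in the choroid plexus, so 9 further genes of that tissue were looked up after these values were seen. Of the 9, 2 were bright enough to be tested, 3 were higher in both pairs and 0 reached 2-fold in both, with differences between -0.44 and 0.22 for the icKO pair and between -0.23 and 0.48 for the control pair.

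The long noncoding RNA gene AY036118 was called higher (limma, adjusted p = 0.0197), at 13.17 and 13.16 on p50 and 11.89 and 11.67 on naive arrays, and the predicted gene Gm10222 at 14.08 and 13.93 on p50 and 11.41 and 11.47 on naive arrays. Both were chosen after their values were seen. AY036118 lay higher in EAE, at 14.38 and 14.58.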
